A study of Mus musculus with 9 samples.

Results

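The genes described here are the protein-coding mouse genes whose symbol is Zfp followed by digits only, that is, the numbered members of the zinc finger protein nomenclature. Zfp42 and Zfp57, which mark pluripotent cells and imprinted regions, were left out by the same rule. The annotation held 363 such genes, and for 148 of these the deposited table offered a separate locus. Altogether 10060 protein-coding genes had such a locus among the 54913 loci analysed. A locus was assigned by its position and strand and not by a printed name. The locus and the gene had to cover at least 50% of each other on the same strand, with no other locus and no other protein-coding gene of that strand competing for the interval.

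RNA of 9 libraries was compared, 3 in each group. All mice and cell lines were of the labelled strain that joins the allele Gt(ROSA)26Sortm1(rtTA*M2)Jae, a doxycycline-dependent activator, with Col1a1tm3(tetO-Pou5f1,-Sox2,-Klf4,-Myc)Jae/J, so that the reprogramming factors Oct4, Sox2, Klf4 and c-Myc could be induced with doxycycline in every group. The SSC group holds spermatogonial stem cells, the germ line stem cells of the testis, taken without passage from testes of early postnatal pups by magnetic sorting for the surface marker Gfra1. SSCiPSC are induced pluripotent stem cells made from SSC, and fiPSC are those made from fetal fibroblasts, both sampled at passages 10 to 11 by the labels, whereas the methods of the study give a later passage for the purified iPSC. The iPSC lines were clonal and were purified for SSEA1, a surface antigen of pluripotent mouse cells, which lowers the share of feeder cells. The labels give a medium with LIF and doxycycline for all groups, whereas the methods of the study describe a stepwise withdrawal of doxycycline from iPSC. The labels do not say whether the 3 libraries of a group came from separate animals or lines, so the p-values measure only the spread between these libraries.

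Most proteins of this family are built from tandem zinc fingers of the Cys2-His2 type, each of which contacts a few bases of DNA. Many also carry a KRAB domain, which recruits the corepressor Trim28 and, through it, the methyltransferase Setdb1 and heterochromatin proteins, so that the bound DNA is packed with repressive histone methylation. In pluripotent and germ line cells this machinery is known for silencing retroviral elements and for protecting imprinted regions. Many of the KRAB zinc finger genes lie in tandem clusters that arose by duplication. The symbol does not guarantee any of these features. Zfp36, for example, codes for tristetraprolin, an RNA-binding protein with fingers of another type that speeds the decay of AU-rich mRNAs.

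The files give FPKM, fragments per kilobase of transcript, scaled to the mapped fragments of the library, without counts. Depth was estimated from the steps between the lowest values, which correspond to single fragments. In units of 1000000 fragments, the SSC libraries were shallow, with 1.77, 4.62 and 1.38 in replicates 1, 2 and 3. The SSCiPSC libraries held 15.8, 13.7 and 15.004 such units and the fiPSC libraries 13.3, 17.6 and 15.4. A single fragment per kilobase was therefore worth 0.566, 0.216 and 0.723 FPKM in the SSC replicates and at most 0.0754 FPKM in iPSC, and 7, 1 and 10 members were listed at 0 in SSC against 2 to 4 in an iPSC library. Low values in SSC are accordingly the least certain of the data set.

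The labels were checked against marker genes of the cell types that the samples could hold. In SSC, all 12 germ line markers with a locus were above 0, their summed level was 654, 784 and 535 FPKM in replicates 1, 2 and 3, and the most abundant was Dazl, a germ cell RNA-binding protein, at 210 FPKM on average. In SSCiPSC 9 of these 12 markers were lower and 3 higher than in SSC, and their sum in the iPSC libraries was 269 to 462 FPKM, led by Etv5. The SSC libraries also held markers of the somatic testis. The 9 Sertoli markers summed to 1409, 1434 and 1170 FPKM, led by Clu at 632 FPKM, and the 3 Leydig markers to 160, 124 and 236 FPKM, led by Cyp11a1. The 7 macrophage markers were uneven, with 64.6, 23.8 and 198 FPKM, so that replicate 3 stood above the other SSC replicates. The same replicate stood apart in the 8 fibroblast or feeder markers, which summed to 117, 109 and 317 FPKM in SSC and to between 148 and 239 FPKM in iPSC. Most of the iPSC sum came from Fn1, which rose from 30.0 FPKM on average in SSC to 161 in SSCiPSC, whereas Col1a1, Col1a2, Col3a1 and Dcn were lower there, Col3a1 at 52.0 and 9.14 FPKM. The 5 peritubular myoid markers summed to between 84.9 and 115 FPKM in SSC and to between 10.3 and 14.1 FPKM in iPSC. The 6 endothelial markers summed to 56.8 to 117 FPKM in SSC and 83.4 to 127 FPKM in iPSC, but the iPSC sum was nearly all Pecam1, which pluripotent cells also express. Cdh5, Kdr, Tie1 and Emcn were lower in SSCiPSC, with Cdh5 at 20.7 FPKM on average in SSC and 0.011 in SSCiPSC and Emcn at 0 in every iPSC library. In iPSC, the Sertoli sum ranged from 175 to 309 FPKM, nearly all of it from Rhox5, which pluripotent cells also express, with Cst12 and Defb19 at 0. The Leydig sum there was below 0.4 FPKM, the macrophage sum ranged from 8.997 to 15.4 FPKM, and the 8 pluripotency markers rose from between 57.5 and 67.7 FPKM in SSC to between 1719 and 2408 FPKM in iPSC, with Nanog at 0 in the 3 SSC libraries. The pluripotency sum was led by Pou5f1 in iPSC, at 733 FPKM on average in SSCiPSC, and by Klf4 in SSC. Both genes are also in the inducible allele of the strain, and the part of RNA from that allele was not tested. The part of the somatic testis cells in the differences between SSC and iPSC below was not tested. In bulk RNA, fewer cells of a type and less RNA per cell cannot be told apart.

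Numbered Zfp genes were expressed at moderate levels in the 3 groups. The median member was at 8.58 FPKM in SSC, 7.72 in SSCiPSC and 8.02 in fiPSC, and 63, 62 and 64 of the 148 members reached a mean of 10 FPKM. Only 10 members in SSC, 16 in SSCiPSC and 13 in fiPSC had a mean below 1 FPKM. The highest level in each group belonged to Zfp207, also named BuGZ, a spindle assembly factor, with 209, 214 and 198 FPKM in SSC, 217, 233 and 212 in SSCiPSC and 209, 178 and 199 in fiPSC. The group means of Zfp207 thus lay within a narrow range. The median SD of a member between replicates, on the log2(FPKM + 1) scale, was 0.30 in SSC, 0.21 in SSCiPSC and 0.12 in fiPSC, and 70 of the 148 members had their highest mean in SSC, 37 in SSCiPSC and 41 in fiPSC.

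**Figure D1:**
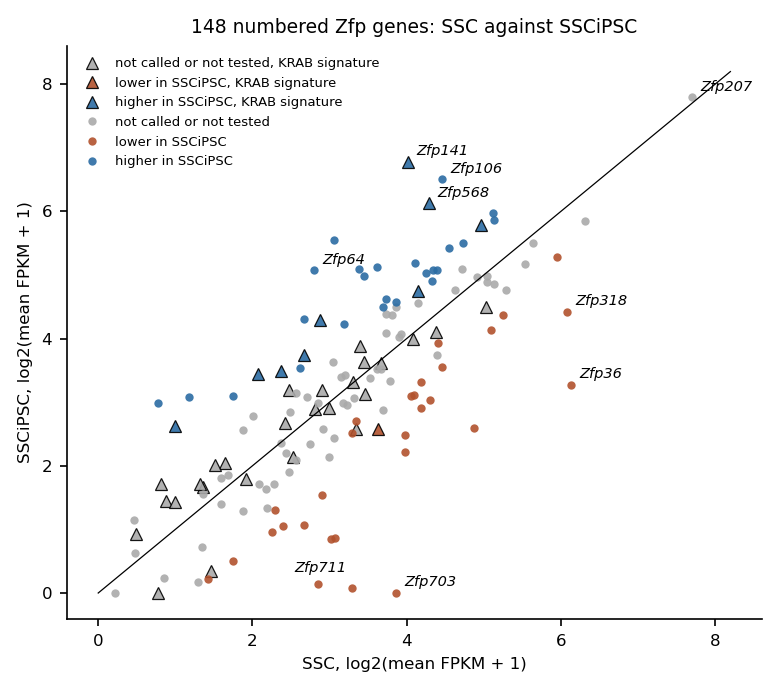
Mean level of each of the 148 members in SSC (horizontal) and SSCiPSC (vertical), as log2(mean FPKM + 1), with the line of equality; triangles carry the KRAB signature, and blue and brown points were called higher or lower in SSCiPSC. Zfp207 lies at the top end on the line, Zfp141 and Zfp568 lie above it, and Zfp36, Zfp711 and Zfp703 lie below it.

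The comparison of SSCiPSC with SSC asks how this gene family changed when the germ line stem cells were reprogrammed. A member was tested when at least 3 of the 6 libraries reached 1 FPKM, and it was called when its adjusted p was below 0.05 in limma, fitted to log2(FPKM + 1) of all loci with Benjamini-Hochberg adjustment. Of the 148 members, 139 were tested and 63 were called, 33 higher and 30 lower in SSCiPSC. This is 45.3% of the members tested, where 50.3% of all 36544 loci tested and 63.1% of the genes with a locus of their own were called, so the share of called members was near or below the background. Levels did not overlap between the groups for 78 members (56.1%), against 59.8% of all loci. The median log2 difference was 0.12 over members and 0.11 over all loci. With median-ratio scaling of the libraries the median of all loci moved to 0.29, and the split of the called members was 39 higher and 22 lower, whereas with quantile normalization it was 27 higher and 35 lower. Since 3 libraries stood against 3, an exact two-sided permutation test of a single gene cannot go below p = 0.1, and none was used for calls.

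The members that rose most were Zfp141, Zfp706, Zfp2, Zfp64, Zfp106, Zfp568, Zfp423 and Zfp882. Zfp141, a KRAB zinc finger gene on chromosome 7 (42473386 to 42505740, minus strand), was at 12.7, 16.3 and 16.7 FPKM in SSC replicates 1, 2 and 3, at 115, 113 and 101 FPKM in SSCiPSC and at 84.6, 73.3 and 98.5 FPKM in fiPSC. Every iPSC library stood far above every SSC library. The difference between SSCiPSC and SSC was 2.77 ± 0.15 (SE) on the log2(FPKM + 1) scale, with an adjusted p of 7.9e-05 in limma. This was the largest rise among the members tested on this scale, whereas with a pseudocount of 0.1 the rises of Zfp2 (3.81) and Zfp882 (3.18), both low in SSC, exceeded that of Zfp141 (2.84). Zfp568, also on chromosome 7 (29983955 to 30028282, plus strand), codes for a KRAB repressor that is needed in the early embryo and silences a placental transcript of Igf2. It was at 17.4, 18.1 and 20.04 FPKM in SSC, 59.3, 80.01 and 67.2 in SSCiPSC and 55.1, 49.95 and 58.6 in fiPSC, again without overlap of SSC and iPSC, and its difference between SSCiPSC and SSC was 1.83 ± 0.16. Zfp809, which in embryonic stem cells binds the proline tRNA primer binding site of retroviruses and brings in Trim28, rose from 7.10, 5.05 and 6.92 FPKM to 19.6, 19.9 and 16.4 FPKM (log2 difference 1.43, adjusted p = 0.0014 in limma). The KRAB gene Zfp110, whose product was described as a partner of the neurotrophin receptor p75, rose by 1.36 on the log2 scale, and each of its SSCiPSC libraries was above each SSC library.

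Members without a recognised KRAB domain rose as well. Zfp706, a short protein with a single finger that was found to promote the exit of embryonic stem cells from self-renewal, was at 6.41, 6.997 and 8.58 FPKM in SSC against 34.7, 53.9 and 49.1 FPKM in SSCiPSC. Zfp64 was at 6.04, 5.86 and 5.97 FPKM in SSC against 26.6, 39.0 and 32.6 FPKM in SSCiPSC. Zfp106, an RNA-binding protein needed by motor neurons, was at 20.9, 21.5 and 20.6 FPKM in SSC against 81.1, 94.4 and 94.7 FPKM in SSCiPSC. For these genes the groups were well apart, with log2 differences of 2.48, 2.26 and 2.05, although the SSCiPSC replicates of Zfp706 and Zfp64 varied more than those of the median member. Rises from low levels were less certain. Zfp2 was at 0, 0.636 and 1.52 FPKM in SSC and between 5.73 and 8.88 FPKM in SSCiPSC. The KRAB gene Zfp882 was at 0.661, 2.35 and 0 FPKM in SSC and between 3.98 and 5.85 in SSCiPSC, and its call was lost with a pseudocount of 0.1 and without SSCiPSC replicate 1 or 2. Zfp423, a transcription factor of neural and fat cell development, was at 1.14, 0.644 and 1.99 FPKM in SSC against 3.22, 12.6 and 6.51 in SSCiPSC, and its call was lost without SSC replicate 2 or without SSCiPSC replicate 2 or 3.

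Smaller rises were called for several members with described functions. Zfp638, a nuclear protein that silences unintegrated retroviral DNA, rose from 32.5, 36.0 and 33.0 FPKM to 71.1, 60.5 and 55.3 FPKM (log2 difference 0.85), although it missed the threshold with quantile normalization. Zfp516, a regulator of brown fat genes, rose by 0.88. Zfp143, which binds promoters of housekeeping genes and takes part in chromatin looping, rose by 0.73, from between 11.0 and 15.2 FPKM to between 21.7 and 24.1. Zfp598, the ubiquitin ligase that senses collided ribosomes, rose by 0.74, but this call was lost without SSC replicate 1 or 3, without SSCiPSC replicate 2 or 3, and with quantile normalization.

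The members that fell most in SSCiPSC were Zfp703, Zfp711, Zfp36, Zfp618, Zfp275, Zfp467, Zfp362 and Zfp398. None of them carried the KRAB signature described below, but Zfp275 matched a wider pattern of the domain, chosen after the data were seen. Zfp703, a corepressor known from breast cancer, was at 12.6, 10.8 and 17.3 FPKM in SSC, at 0, 0 and 0.0161 FPKM in SSCiPSC and at 0.110, 0.0138 and 0.0632 FPKM in fiPSC, and was thus nearly confined to SSC among these libraries. Its difference between SSCiPSC and SSC was -3.83 ± 0.26 on the log2(FPKM + 1) scale. Zfp711, an X-linked partner of the histone demethylase Phf8, followed the same course, from 7.45, 11.3 and 7.68 FPKM to at most 0.103 FPKM in the SSCiPSC libraries. Zfp618, described as a partner of Uhrf2 at hydroxymethylated DNA, fell from 4.46, 6.17 and 7.96 FPKM to at most 0.228 FPKM. These genes passed the filter on low values through SSC alone, which fixed the direction of their calls, so no p-value is given for them. The same is true of Zfp503, named after its values were seen, and Zfp521. Among the SSC replicates, Zfp703 was highest in replicate 3 and lowest in replicate 2, which was also the order of the Leydig, macrophage and fibroblast or feeder sums. The Sertoli and germ line sums had the opposite order. Replicate 3 was also the shallowest SSC library and replicate 2 the deepest.

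Zfp36 was among the 5 most abundant members in SSC, with 67.2, 55.7 and 84.5 FPKM in SSC, 9.36, 7.40 and 9.34 in SSCiPSC and 10.4, 9.23 and 10.4 in fiPSC. Its difference of -2.84 ± 0.20 left no overlap between SSC and iPSC. Among the SSC replicates its order was that of the macrophage sum given above, highest in replicate 3 and lowest in replicate 2, and also that of the Leydig and the fibroblast or feeder sums, and the part of those cells was not tested. The Sertoli and germ line sums and the depth of the libraries had the opposite order. Zfp318, a nuclear zinc finger protein first described in testis, was at 68.5, 75.3 and 55.4 FPKM in SSC and between 18.9 and 21.8 FPKM in SSCiPSC, a difference of -1.64. The X-linked gene Zfp275 was between 24.1 and 32.0 FPKM in SSC and between 4.28 and 5.97 FPKM in SSCiPSC (log2 difference -2.28). Zfp131, a protein with a BTB domain, was at 31.7, 34.8 and 33.3 FPKM in SSC against 14.1, 18.2 and 17.6 in SSCiPSC. Zfp644, a partner of the methyltransferases G9a and GLP, fell by 0.67 and missed the threshold with median-ratio scaling. Zfp410, which is known to act almost solely through the gene of the remodeller Chd4, was at 22.2, 18.4 and 19.9 FPKM in SSC against 14.6, 14.0 and 14.3 in SSCiPSC, a difference of -0.47 whose call was lost with median-ratio scaling, with the replicate number as a block, in limma without a variance trend and without any 1 of 5 of the 6 libraries. Chd4 itself did not pass the test, at 138, 138 and 122 FPKM in SSC against 86.2, 175 and 136 in SSCiPSC.

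**Figure D2:**
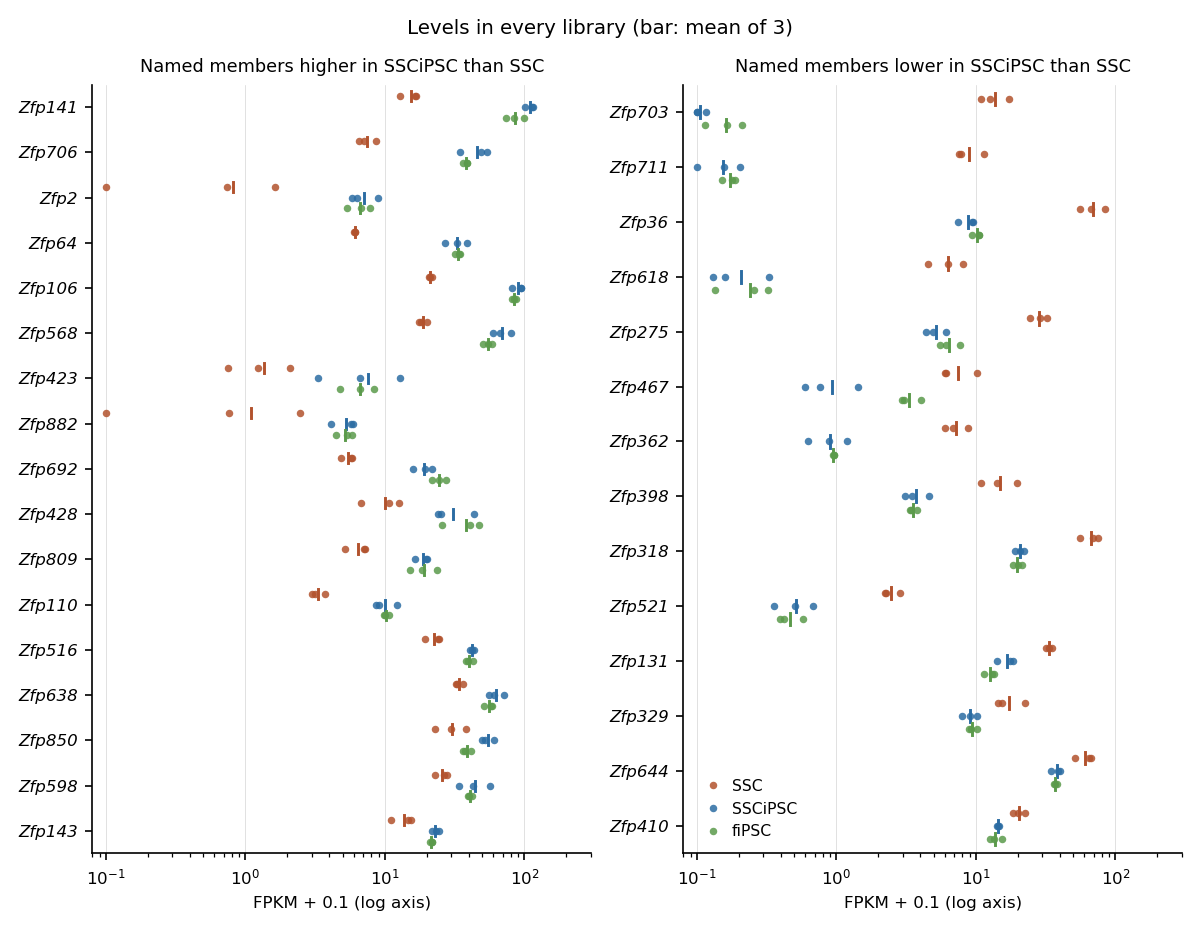
Level of the named members that were called between SSCiPSC and SSC in each of the 9 libraries, as FPKM + 0.1 on a log axis, with a bar at the mean of each group of 3. SSCiPSC points lie clear of the SSC points for each gene shown, whereas fiPSC points overlap SSC for Zfp850, and Zfp703 lies near the left edge in iPSC.

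Several abundant members gave no call. For Zfp207 the difference between SSCiPSC and SSC was 0.09 ± 0.11 (adjusted p = 0.53 in limma), but it was -1.03 with quantile normalization, with an adjusted p of 0.00068. Zfp655 was at 91.3, 64.4 and 80.5 FPKM in SSC against 63.1, 46.1 and 60.2 in SSCiPSC, with no overlap and an adjusted p of 0.080, and it passed the threshold under several other settings. Zfp217, a gene amplified in cancers whose product works with Ctbp and the demethylase Lsd1, and Zfp148, a regulator that binds GC-rich promoters, overlapped between the groups. Their values were 28.6 to 37.0 FPKM and 24.9 to 45.9 FPKM in SSC, and 22.5 to 33.6 FPKM and 23.6 to 29.5 FPKM in SSCiPSC. With quantile normalization both were called lower, by -0.66 for Zfp217 (adjusted p = 0.025 in limma) and -0.87 for Zfp148 (adjusted p = 0.037 in limma), and Zfp148 was also called without SSC replicate 3 (-0.76, adjusted p = 0.012 in limma).

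The KRAB domain was looked for in the annotated proteins, because it sets the repressors that work through Trim28 apart from the other members. A pattern of the KRAB A box was matched to the longest annotated protein of each gene. It occurred in 249 of 21864 mouse proteins and in 36 of the 148 members. Among the 215 numbered Zfp genes without a locus of their own it occurred in 133 (61.9%), against 24.3% of the members, so the share of KRAB genes was lower here than in the remaining family. The KRAB members had a median of 11 fingers and the others a median of 7. In SSC, the median level was 5.71 FPKM for KRAB members and 9.28 for the others, and in SSCiPSC it was 7.11 and 7.79 FPKM.

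Between SSCiPSC and SSC, 33 of the 36 KRAB members were tested and 10 were called, 9 higher and 1 lower. The risers were Zfp141, Zfp568, Zfp809, Zfp110, Zfp882, Zfp850, Zfp946, Zfp369 and Zfp266, and the member that fell was Zfp426. Zfp946, Zfp369, Zfp266 and Zfp426 were named after their values were seen. Higher calls thus made up 27.3% of the KRAB members tested and lower calls 3.03%, where 26.2% and 24.1% of all loci tested were called higher and lower. Over genes with a locus of their own these shares were 33.9% and 29.2%. In either direction 30.3% of the KRAB members were called, against 63.1% of those genes. Of the 106 other members tested, 53 were called, 24 higher (22.6%) and 29 lower (27.4%). Of these lower calls 5 passed the filter on low values through SSC alone (Zfp503, Zfp521, Zfp618, Zfp703 and Zfp711). The filter fixed their direction, so they say nothing about how the splits differ. The median log2 difference was 0.41 in KRAB members and -0.13 in the others. With median-ratio scaling the called KRAB members were 10 higher and none lower, and the others 29 higher and 22 lower with a median of 0.06. With quantile normalization they were 8 higher and 1 lower, against 19 higher and 34 lower. A wider pattern of the domain, chosen after the data were seen, gave 13 called of 39 tested, 10 higher and 3 lower. The difference between KRAB and other members was not tested.

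The number of fingers, counted as matches of the Cys2-His2 spacing, ranged up to 40 with a median of 9. Of the 35 tested members with 1 to 5 fingers, 13 were higher (37.1%) and 4 were lower (11.4%) in SSCiPSC, where 26.2% and 24.1% of all loci and 33.9% and 29.2% of genes with a locus of their own were. Those with 6 to 10 fingers were split 9 and 9 among 43 tested, and those with more than 10 fingers 10 and 14 among 55 tested. In 7 members no finger of this spacing was found, Zfp36 and Zfp703 among them, and of the 6 tested 1 was higher and 3 were lower.

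Members lie close together on several chromosomes. Chromosome 7 held 89 of the 363 numbered Zfp genes and 35 of the members. Members no more than 1000000 bp apart were joined into clusters of at least 3, which gave 12 clusters with 58 members. In clusters 18 of 54 tested members were called (33.3%, 9 higher and 9 lower), and outside clusters 45 of 85 (52.9%, 24 higher and 21 lower), a difference that was not tested. Over all loci the share was 50.3%, and over genes with a locus of their own 63.1%. The split outside clusters turned with scaling, at 28 higher and 15 lower with median-ratio scaling and 19 higher and 27 lower with quantile normalization. In clusters it was 11 and 7, and 8 and 8. In the cluster of 6 members on chromosome 7 from 29768552 to 30169750, Zfp568 rose and the other 5 were not called, with log2 differences from 0.00 to 0.68. In the cluster of 8 on chromosome 17 from 21008903 to 23564238, 1 of 7 tested members was called, the KRAB gene Zfp946, which was higher. Zfp945, its most abundant member on average over the 9 libraries but below Zfp946 in iPSC, was not called, at 9.14, 12.3 and 13.8 FPKM in SSC against 14.5, 8.31 and 8.73 in SSCiPSC. On chromosome 9 from 20345136 to 20521417, all 4 members carried the KRAB signature, and Zfp266 rose by 0.63 while its neighbour Zfp426 fell by 1.02. Both calls were close to the threshold, with adjusted p of 0.046 for Zfp266 and 0.049 for Zfp426 in limma. For Zfp426 the levels overlapped between the groups at 6.64, 13.03 and 14.5 FPKM in SSC against 6.89, 4.12 and 3.95 in SSCiPSC, and its call was lost with median-ratio scaling, with a pseudocount of 0.1 and without a variance trend.

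The cluster on chromosome 6 from 47819266 to 48445825 held 3 lower calls and no higher one in SSCiPSC against SSC, 42.9% of those tested, where 24.1% of all loci were called lower and 50.3% in either direction. A cluster of 4 on chromosome 7 from 6131491 to 6331285 likewise held 1 lower call and no higher one. All 8 numbered Zfp genes of the chromosome 6 interval had a locus of their own, 7 were tested, and Zfp398, Zfp282 and Zfp467 were those lower in SSCiPSC, by 1.75, 1.32 and 2.18 on the log2 scale. Zfp282 was named after its values were seen. Zfp398 was at 19.6, 14.1 and 10.7 FPKM in SSC against 3.004, 4.53 and 3.35 in SSCiPSC. The most abundant of the remaining genes, Zfp746, a repressor studied in Parkinson's disease, was at 13.7, 16.2 and 8.62 FPKM in SSC against 8.94, 6.83 and 11.3 in SSCiPSC, which overlapped. With median-ratio scaling and with quantile normalization this cluster also gave 3 lower calls and no higher one, but it gave 2 with the replicate number as a block and 1 of 4 tested at a mean of at least 5 FPKM. In fiPSC against SSC, 4 of its 8 members were called where 51.8% of all loci were, 3 lower and 1 higher, the last being the KRAB gene Zfp786, at no more than 1.45 FPKM in any library and named after its values were seen. Zfp786 passed the filter on low values through fiPSC alone, and the cluster gave no higher call with a pseudocount of 0.1, without a variance trend or without that filter. Its calls in this comparison were 2 lower and 1 higher with median-ratio scaling, 2 lower with quantile normalization and 1 lower with the replicate number as a block. In the cluster on chromosome 7 from 12415153 to 12985714, Zfp110 rose while Zfp329, the most abundant member in SSC but not in iPSC, where Zfp110 was higher, fell from 14.2, 22.2 and 15.2 FPKM to 10.1, 9.04 and 7.89 FPKM (log2 difference -0.85, lost with median-ratio scaling and without SSCiPSC replicate 2 or 3). In the cluster from 127233061 to 127885996 of that chromosome, 3 of 6 members were called, Zfp553 higher and Zfp629 and Zfp768 lower, with log2 differences of 1.44, -1.26 and -1.58, these 3 being named after their values were seen. Zfp646, the most abundant gene there on average over the 9 libraries but not in SSCiPSC, was at 25.8, 30.0 and 19.8 FPKM in SSC against 28.1, 39.8 and 31.9 in SSCiPSC, with no call.

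**Figure D3:**
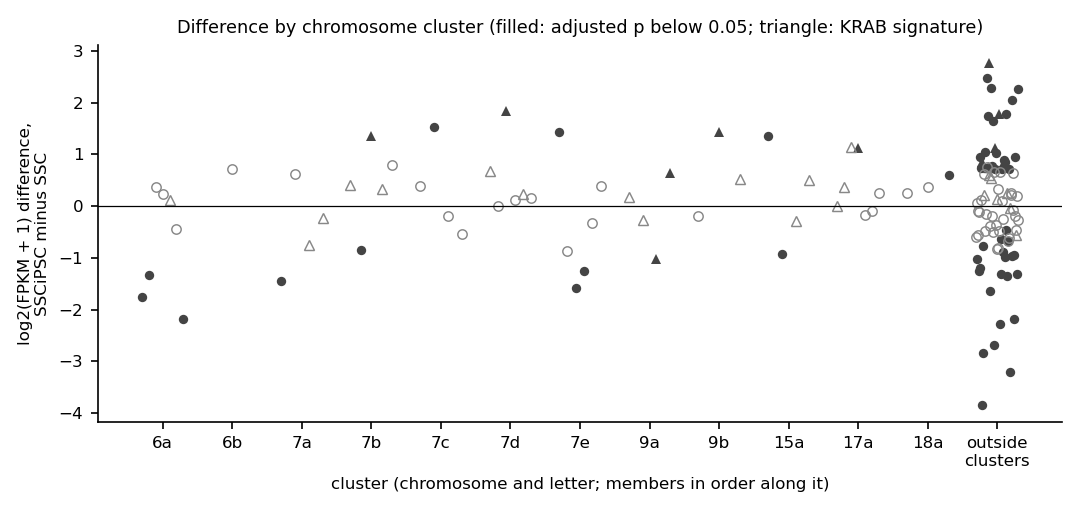
Difference between SSCiPSC and SSC on the log2(FPKM + 1) scale for each tested member, by chromosome cluster and, at the right, outside clusters; filled symbols had an adjusted p below 0.05, and triangles carry the KRAB signature. In most clusters called and uncalled members stand side by side, and in cluster 6a, on chromosome 6, the 3 called members are all below 0.

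Promoter sequences from RefSeq, on GRCm38.p6 and from 250 bases before to 50 bases after the start, could be matched to 115 of the 148 members. Members had CG-rich promoters, with a median of 18 CG dinucleotides in 300 bases against 7 over 27025 mouse genes. KRAB members had a median of 13.5 and the others of 20. Motifs were searched by their letters on both strands, and both the motifs and the comparison were chosen after values were seen. The GC box GGGCGG, a binding site of Sp factors, was found in 58.3% of members and 35.6% of all genes, and the CCAAT box CCAAT, read by NF-Y, in 40.9% and 37.8%. Among the matched members that rose in SSCiPSC, 11 of 24 held a CCAAT box and 11 a GC box, and among those that fell 3 of 22 held a CCAAT box and 15 a GC box. Of the 69 matched members that were not called, 33 held a CCAAT box (47.8%), close to the share among the risers (45.8%), and 41 a GC box. The letters ACTACAATT, part of the element bound by Zfp143, which is itself a member, stood in 5 promoters (4.35%), those of Zfp1, Zfp58, Zfp180, Zfp454 and Zfp692, against 0.422% of all genes. A match of letters is a description and not a binding site, and the shares were not tested. The 27025 genes were not limited to protein-coding genes or to genes with a locus of their own. Their promoter was the one at the lowest coordinate, whereas that of a member was the one nearest its annotated start.

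The 160 bases before the start are shown for Zfp141 and Zfp809, which rose, and Zfp36 and Zfp618, which fell, as examples picked for their CCAAT and GC boxes. They lie at chr7:42505754-42505913 on the minus strand, chr9:22225552-22225711 on the plus strand, chr7:28379229-28379388 on the minus strand and chr4:62965407-62965566 on the plus strand. Capitals mark every match of a CCAAT box (CCAAT or ATTGG) or a GC box (GGGCGG or CCGCCC).
Zfp141: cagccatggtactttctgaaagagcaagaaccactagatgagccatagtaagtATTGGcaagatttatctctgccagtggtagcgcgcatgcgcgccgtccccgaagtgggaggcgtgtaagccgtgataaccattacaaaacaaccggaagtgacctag
Zfp809: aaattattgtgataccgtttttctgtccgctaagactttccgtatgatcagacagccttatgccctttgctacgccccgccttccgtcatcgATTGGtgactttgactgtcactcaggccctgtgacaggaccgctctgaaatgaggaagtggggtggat
Zfp36: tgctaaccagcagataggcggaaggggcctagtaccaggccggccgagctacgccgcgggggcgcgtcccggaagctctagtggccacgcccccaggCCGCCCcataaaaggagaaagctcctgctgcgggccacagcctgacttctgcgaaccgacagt
Zfp618: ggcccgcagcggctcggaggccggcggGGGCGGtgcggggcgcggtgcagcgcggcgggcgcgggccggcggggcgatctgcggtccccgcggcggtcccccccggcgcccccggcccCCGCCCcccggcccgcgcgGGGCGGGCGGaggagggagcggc
Each of the stretches of the risers holds 1 CCAAT box in the reverse orientation and no GC box. That of Zfp36 holds 1 GC box, and that of Zfp618 holds 4 and 32 CG dinucleotides, against 8 and 9 in Zfp809 and Zfp141.

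The comparison of fiPSC with SSCiPSC asks whether the cell of origin left a difference between the iPSC. Of the 148 members, 135 were tested and none passed the adjusted threshold in limma, where 0.0678% of all 33948 loci tested did. At an unadjusted p below 0.05 there were 15 members, 11.1% of those tested, against 11.7% of all loci, and 23 members (17.0%) had no overlap between the groups, against 18.6%. The median absolute log2 difference over members was 0.15, and the median half-width of the 95% interval was 0.41. For 125 of the 135 members the interval lay within a log2 difference of 1 in either direction. These intervals are not adjusted for the number of loci, and even the difference of 1.23 of Zfp467, described next, did not pass the adjusted threshold, so the missing calls do not show equal levels.

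The lowest p belonged to Zfp467, a factor that favours the formation of fat cells over bone cells. It was at 5.93, 6.05 and 10.1 FPKM in SSC, at 1.32, 0.497 and 0.669 FPKM in SSCiPSC and at 2.86, 3.91 and 2.95 FPKM in fiPSC, so the groups were ordered without overlap. The difference of fiPSC from SSCiPSC was 1.23, with a 95% interval from 0.69 to 1.77 and an adjusted p of 0.19 in limma. Next came Zfp850, Zfp263, Zfp105 and Zfp1. Zfp850, a KRAB gene, was at 29.5, 38.3 and 22.6 FPKM in SSC, 60.7, 49.6 and 52.5 in SSCiPSC and 36.4, 37.5 and 41.4 in fiPSC, so that SSCiPSC stood clear of SSC and fiPSC did not. Its call between SSCiPSC and SSC was lost with quantile normalization and without SSCiPSC replicate 1. Its difference between the iPSC groups was -0.48 (interval -0.76 to -0.20). Zfp105 was at 18.4, 20.2 and 20.8 FPKM in SSCiPSC and 14.3, 14.7 and 15.2 in fiPSC, and Zfp263 at 32.8, 30.2 and 28.3 and at 23.1, 22.5 and 23.6. Zfp1, in contrast, was higher in fiPSC, at 15.4, 17.4 and 14.3 FPKM against 11.8, 11.3 and 10.8. None of these differences passed the adjustment, with adjusted p from 0.19 to 0.30 in limma.

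**Figure D4:**
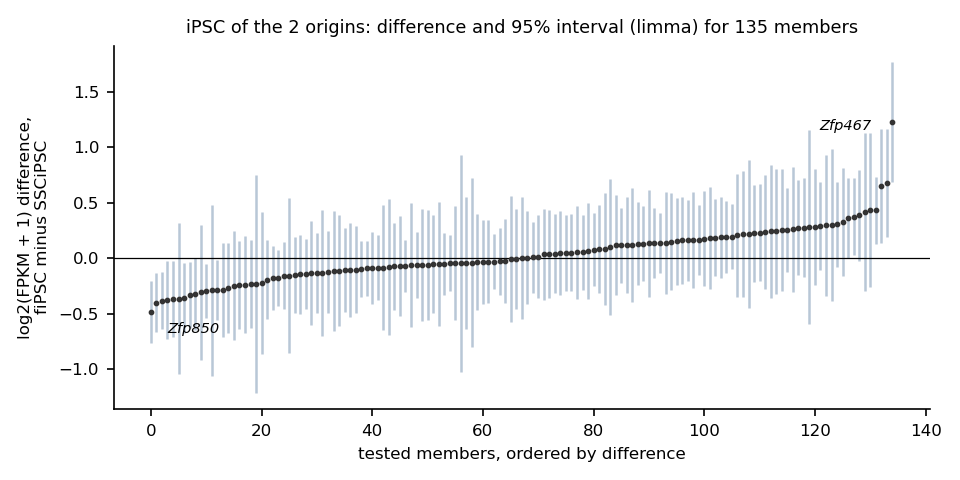
Difference between fiPSC and SSCiPSC on the log2(FPKM + 1) scale for the 135 tested members, ordered by size, with 95% intervals from limma. Most intervals cross 0; Zfp467 is the point at the upper right, at 1.23.

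The comparison of fiPSC with SSC shares its SSC libraries with the first comparison, so its values are given for the same genes and not as independent support. Here 141 members were tested and 71 were called, 38 higher and 33 lower in fiPSC, which is 50.4% against 51.8% of all 38007 loci tested and 65.8% of genes with a locus of their own. The groups did not overlap for 87 members (61.7%), against 61.6% of all loci. The median log2 difference was 0.06 over members and 0.17 over all loci, and median-ratio scaling moved the latter to 0.35 and the split to 45 higher and 22 lower, while quantile normalization gave 33 higher and 37 lower. The fiPSC levels of Zfp141 and Zfp568 given above corresponded to log2 differences from SSC of 2.41 and 1.51, and those of Zfp703 and Zfp36 to -3.75 and -2.65. Zfp64 and Zfp106 were 2.30 and 1.95 higher, and Zfp692 and Zfp428 were 1.998 and 1.82 higher. Zfp692 was at 5.74, 5.62 and 4.72 FPKM in SSC against 21.8, 24.2 and 27.2 in fiPSC, and the small protein gene Zfp428 at 10.6, 12.5 and 6.69 and at 40.9, 25.8 and 46.8. KRAB members were called higher in 10 and lower in 2 of 34 tested cases, where 28.0% of all loci were called higher and 23.7% lower, and the other members in 28 and 31 of 107. Among these KRAB members Zfp454 and Zfp786, named after their values were seen, passed the filter through fiPSC alone. Among the other members, 6 lower calls passed it through SSC alone (Zfp362, Zfp503, Zfp521, Zfp618, Zfp703 and Zfp711). The higher call of Zfp174, also named after its values were seen, passed it through fiPSC alone. The filter fixed the direction of all these calls, so they say nothing about how the splits differ. With median-ratio scaling the KRAB members were 12 higher and none lower and the others 33 higher and 22 lower, which turned their direction, and with quantile normalization they were 10 and 3 against 23 and 34. Leaving out fiPSC replicate 1 lowered the count of called members from 71 to 46.

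Because KRAB zinc finger proteins act through shared partners, a list of 22 genes of this silencing machinery was read from the same fits, and 19 had a locus of their own. In SSCiPSC 13 of them were called, 11 higher and 2 lower than in SSC, with a median log2 difference of 0.82 against 0.11 over all loci. These 13 are 68.4% of the list, near the 63.1% of genes with a locus of their own, where 50.3% of all loci were called. With quantile normalization 8 were higher and 3 lower, and the median was 0.20. Trim28, the corepressor that the KRAB domain binds, was at 127, 148 and 114 FPKM in SSC, 468, 1029 and 613 in SSCiPSC and 534, 391 and 658 in fiPSC. Its iPSC libraries varied among themselves but all lay above SSC, and the difference between SSCiPSC and SSC was 2.36 ± 0.30 with an adjusted p of 0.00096 in limma. Cbx1, a heterochromatin protein of the HP1 family, was at 84.8, 117 and 110 FPKM in SSC against 623, 720 and 641 in SSCiPSC. Its relative Cbx5 was at 22.4, 28.5 and 35.1 FPKM and 134, 132 and 119 FPKM. Both stood clear of SSC by log2 differences of 2.67 and 2.15, whereas the third relative Cbx3 rose by 0.54. Among the others, the remodeller Smarcad1 rose by 2.096 and Fam208a, a subunit of the HUSH silencing complex, by 1.79, and Mphosph8, Morc3, Atrx, Hdac1 and Hdac2 rose by 0.82 to 1.21.

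The methyltransferase Setdb1 was not called, with 48.2, 54.3 and 42.7 FPKM in SSC against 51.1, 70.4 and 57.5 in SSCiPSC. Its cofactor Atf7ip was at 27.3 to 28.8 FPKM in SSC against 23.8 to 35.8 in SSCiPSC, and was not called either. The remodeller Chd3 fell from 28.7, 27.5 and 29.7 FPKM to 2.44, 4.11 and 3.51 FPKM, a log2 difference of -2.78, and the HUSH subunit Pphln1 fell by 1.26. In fiPSC against SSC, 12 of the 19 were called (63.2%), 10 higher and 2 lower, where 51.8% of all loci and 65.8% of genes with a locus of their own were called. With quantile normalization 7 were higher and 4 lower, and the median log2 difference moved from 0.52 to 0.065. Between fiPSC and SSCiPSC none was called in limma, and 4 (21.1%) had an unadjusted p below 0.05, against 11.7% of all loci.

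**Figure D5:**
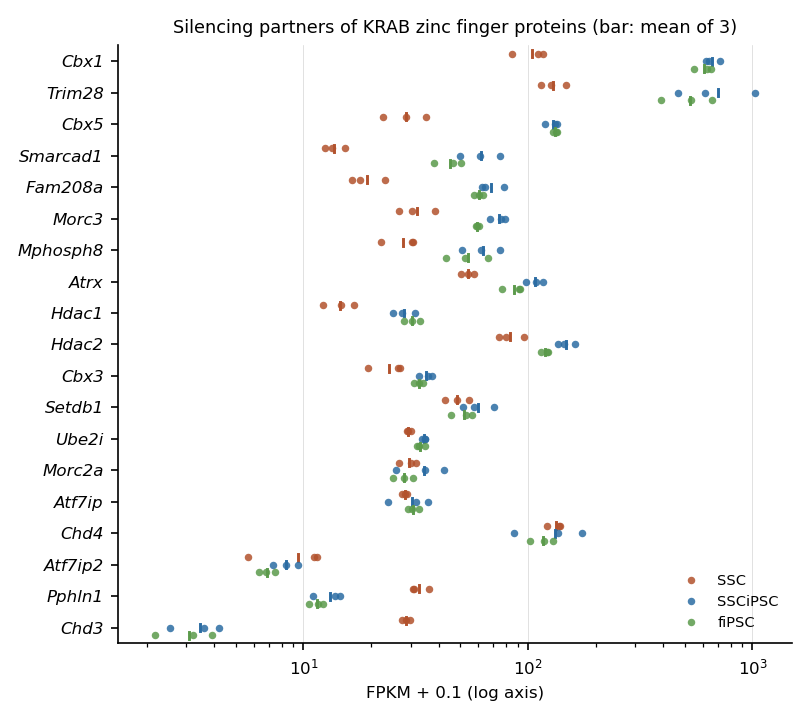
Level of the 19 silencing partners with a locus of their own in each of the 9 libraries, as FPKM + 0.1 on a log axis, with a bar at the mean of each group. Cbx1, Trim28 and Cbx5 are higher in all iPSC libraries than in SSC, and Pphln1 and Chd3 at the bottom are lower.

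Other zinc finger families were set beside the numbered Zfp genes. Of 25 Zbtb genes, whose proteins join fingers to a BTB domain, 12 were called between SSCiPSC and SSC, 2 higher and 10 lower, with a median log2 difference of -0.31. The lower calls include the germ line marker Zbtb16, which passed the filter on low values through SSC alone, so that its direction was fixed. Of 16 Zscan and Zkscan genes, which carry a SCAN domain, 15 were tested and 4 were higher and 2 lower. Of 14 Klf genes, 13 were tested and 5 were higher, among them Klf4, which is also in the inducible allele, and 3 lower. These counts stand beside 50.3% of all loci called, 26.2% higher and 24.1% lower, and the share of called Zbtb genes was 48.0%. The difference between these families and the numbered Zfp genes was not tested. Between fiPSC and SSCiPSC no gene of these families was called.

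Some limits apply to all values. Near-identical fingers are shared between neighbouring KRAB genes, and the files do not say how reads that fit several copies were divided. Of the 148 members, 83 share their interval with another locus of the opposite or of no strand, and 50 have an annotated gene on the opposite strand, so that part of their reads may be counted elsewhere. Of the latter, 30 of 45 tested (66.7%) were called for SSCiPSC against SSC. The share was 45.3% over all members, 50.3% over all loci and 63.1% over genes with a locus of their own. For fiPSC against SSC 32 of 46 were called (69.6%), against 50.4%, 51.8% and 65.8% in the same order. The difference was not tested. The 215 genes without a locus of their own are not described, and 156 of them touched a locus of the same strand that did not meet the rule for a locus of their own.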

How the data were processed

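Total RNA of 9 libraries, 3 per group, was sequenced as paired ends. The authors deposited FPKM values, 1 per assembled locus and library, under a header that reads RPKM. The submitters' processing notes name Trimmomatic 0.32, TopHat2 2.0.9, Bowtie2 2.1.0, Cufflinks 2.2.1, Cuffdiff and the build mm9, but the coordinates of the loci fit GRCm38, which is used here. The labels name both removal of ribosomal RNA and an mRNA library kit.

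Of 54914 loci, 1 with a blank value was left out. Strand was read from the order of the table (in order, a plus, a minus and an unstranded block); where both ends of a locus and a gene matched to 300 bp, the strands were the same in 98.1%. Genes came from GENCODE M21 and the KRAB and finger patterns from its translated coding sequences, where the plan had named RefSeq proteins. Each pair of groups was compared in limma 3.58.1 (R 4.3.3; lmFit, eBayes with trend) on log2(FPKM + 1) for loci that reached 1 FPKM in 3 or more of the 6 libraries, two-sided, with Benjamini-Hochberg adjustment over all loci. In simulated data with 200 loci changed by 2 on the log2 scale it recovered 40.5% for SSCiPSC against SSC (36544 loci, 5.81% false calls), 72.5% for fiPSC against SSCiPSC (33948 loci, 3.33%) and 46.0% for fiPSC against SSC (38007 loci, 6.12%). The noise in these simulations was normal, and the changed loci were far fewer than the 18396 and 19680 called in the comparisons with SSC. The simulated rates therefore do not describe the fits to the real data. Tables and plots used Python 3.11.15, numpy 2.4.6, pandas 2.3.3 and matplotlib 3.10.9.

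The members, gene lists and tests were chosen with earlier results of these data known. Named genes were, for each comparison with SSC, the 8 higher and 8 lower called members with the largest difference, no overlap and a mean of at least 2 FPKM in a group; the 5 lowest p between iPSC; the 5 highest means per group; the most abundant member of each cluster of at least 5; and 28 genes with known roles, of which 18 had a locus. Alternatives were another pseudocount, filter, scaling, variance model, set of libraries or threshold, the replicate block, other overlap rules and each library left out. A summary of the authors' cummeRbund object was not used.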

Additional observations from a re-analysis of the deposited data

How the results depend on the processing

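The count of called members, 63 for SSCiPSC against SSC and 71 for fiPSC against SSC, was 41 and 47 with a reciprocal overlap of at least 80% between locus and gene, 36 and 45 at an adjusted p below 0.01, and 29 and 29 for members with an interval of their own, an alternative chosen after seeing the data; the first and last of these test fewer members. Leaving out 1 library gave 46 to 58 calls for SSCiPSC against SSC (lowest without SSCiPSC replicate 2) and 46 to 80 for fiPSC against SSC (lowest without fiPSC replicate 1, highest without SSC replicate 3). For fiPSC against SSCiPSC the count was 0 under each alternative run. With the replicate number as a block the counts were 57, 0 and 58; libraries of the same number did not deviate together (r from -0.236 to 0.021 across loci), so the numbers were not taken as pairs. With both parts of the KRAB pattern required, 4 of 11 tested members were called (36.4%) instead of 10 of 33 (30.3%). Among the named members, signs were reversed only for those that were not called: Zfp1 (0.19 with median-ratio scaling, -0.15 to 0.077 with 1 library left out, the highest without SSC replicate 3), Zfp207 (-1.03 with quantile normalization), Zfp263 (-0.30 with quantile normalization, -0.046 to 0.14 with 1 library left out, the lowest without SSC replicate 3) and Zfp945 (0.049 with median-ratio scaling). Some medians of sets turned as well with median-ratio scaling. That of members without KRAB signature moved from -0.13 to 0.063 for SSCiPSC against SSC and from -0.086 to 0.15 for fiPSC against SSC. For fiPSC against SSC, that of the chromosome 6 cluster with 8 members moved from -0.14 to 0.071. The cause of these changes was not tested. Across the named members and the counts by direction, 980 values kept their direction and call or, for counts, stayed near the main value, 30 lost a call, 8 gained one, 12 counts moved further and 6 values changed sign. The SSC libraries were 2.87 to 12.7 times shallower than the iPSC libraries, so low levels in SSC rest on few fragments.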
